A study of Mus musculus with 8 samples.

Results

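A set of 9 genes that link skin to itch and to its sensory nerves were followed in mouse skin: the cytokine gene Osm, the receptor chain genes Osmr and Il31ra, the nerve guidance genes Sema3a and Sema3d, the neurotrophic factor gene Artn, the opioid precursor gene Penk, the protease receptor gene F2rl1 and the ion channel gene Trpm2. They were chosen by symbol from the 22740 protein-coding genes listed, and all 9 were found once and passed the filter on low counts. RNA of skin was sequenced from 8 female BALB/c mice, with 2 mice in each of 4 groups and 1 library per mouse. Lesional mice were 6 to 8 weeks old when the allergen model began. The age of baseline mice, and the age of any mouse when its skin was taken, is not stated. All mice ate a low-fibre diet. Baseline CTL mice drank plain water and had no allergen on the skin, and baseline butyrate mice drank 400 mM sodium butyrate without allergen. Lesional CTL mice drank plain water and received house dust mite (HDM) allergen on the skin in 4 exposures of 15 µg, and lesional butyrate mice received the same allergen while drinking 400 mM sodium butyrate from 2 weeks before the first exposure. The lesional skin lay on the back, and was shaved and kept under a patch. The labels give baseline and lesional mice different first numbers, whose meaning is not stated. HDM, the handling of lesional skin, any difference in age and whatever that number stands for cannot be told apart.

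Itch begins at the endings of sensory nerves in the skin, which are excited by cytokines, peptides, proteases and amines released by keratinocytes and immune cells. IL-31 is a known itch cytokine, and its receptor is made of the chain IL-31RA together with the oncostatin M receptor chain OSMR. OSMR also pairs with gp130, the product of Il6st, to bind oncostatin M, the product of Osm, and these receptors signal through STAT proteins. How densely nerves fill the epidermis depends on a balance between growth factors such as artemin (Artn), which draw fibres in, and class 3 semaphorins such as Sema3a, which repel them. Penk encodes the precursor of the enkephalins, peptides that act on opioid receptors, F2rl1 encodes PAR2, a receptor switched on by proteases such as tryptase, and Trpm2 encodes a calcium-permeable channel opened by oxidative stress and found in phagocytes.

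On the mouse genome GRCm38, Osm lies at chr11:4236420-4241026 on the plus strand, Osmr at chr15:6813577-6874969 and Il31ra at chr13:112519898-112594360, both on the minus strand. Sema3a at chr5:13125414-13602565 and Sema3d at chr5:12383385-12588948 lie on the plus strand of the same chromosome. Artn at chr4:117926162-117929763, Penk at chr4:4133531-4138819, F2rl1 at chr13:95511732-95525227 and Trpm2 at chr10:77907722-77970563 all lie on the minus strand. Penk overlaps the antisense transcript A830012C17Rik, and because the kit's strand marking is not given in the sources used here, reads of this pair may not be told apart. Annotated pseudogenes overlap Sema3d and Il31ra on the minus strand, and unverified transcripts overlap Sema3a and Sema3d, so these genes could share reads with them.

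The 250 bases before a RefSeq transcript start (GRCm38.p6) are shown for 4 genes, because they form a pair of receptor chains and a pair of semaphorins whose mean levels lay on opposite sides of baseline in HDM-exposed CTL skin. Capitals mark matches to a STAT motif (TTCNNNGAA) or an NF-kB-like motif, searched on both strands, and no matched stretches overlapped. The Il31ra, Osmr and Sema3a starts lie inside the gene spans given above. They are Il31ra, minus strand, chr13:112580663-112580912, Osmr, minus strand, chr15:6874314-6874563, Sema3a, plus strand, chr5:13396534-13396783, and Sema3d, plus strand, chr5:12382916-12383165.
Il31ra: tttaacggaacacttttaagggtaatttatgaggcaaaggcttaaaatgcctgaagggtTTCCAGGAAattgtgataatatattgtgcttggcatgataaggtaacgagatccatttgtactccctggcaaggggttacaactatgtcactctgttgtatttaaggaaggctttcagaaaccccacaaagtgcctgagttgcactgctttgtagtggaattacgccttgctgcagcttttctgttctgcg
Osmr: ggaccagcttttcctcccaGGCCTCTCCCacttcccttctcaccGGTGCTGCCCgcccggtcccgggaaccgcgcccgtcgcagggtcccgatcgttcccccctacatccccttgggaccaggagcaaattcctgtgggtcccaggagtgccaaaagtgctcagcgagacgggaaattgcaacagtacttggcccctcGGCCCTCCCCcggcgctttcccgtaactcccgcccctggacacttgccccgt
Sema3a: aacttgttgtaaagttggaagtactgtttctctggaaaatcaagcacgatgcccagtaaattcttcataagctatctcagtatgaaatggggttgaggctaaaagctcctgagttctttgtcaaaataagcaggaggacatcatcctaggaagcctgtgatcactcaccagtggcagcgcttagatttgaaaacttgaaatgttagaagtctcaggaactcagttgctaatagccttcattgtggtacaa
Sema3d: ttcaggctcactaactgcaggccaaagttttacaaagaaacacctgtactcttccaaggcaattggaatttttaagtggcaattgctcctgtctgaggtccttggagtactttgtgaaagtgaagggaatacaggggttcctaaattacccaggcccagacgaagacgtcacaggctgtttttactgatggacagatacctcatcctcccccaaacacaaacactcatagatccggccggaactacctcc
Of 6 of the 9 genes matched to a promoter in the RefSeq table (Sema3a, Sema3d, Artn, Osmr, Il31ra and Trpm2), only Il31ra held the STAT motif, at position -191 from the start, and 8.30% of 32851 promoters of 300 bases held it. Osmr held 3 matches to the NF-kB-like motif, at -231, -206 and -52, a motif found in 50.8% of promoters, and an AP-1 motif (TGANTCA, in 7.81% of promoters) at +4. In Trpm2 a CRE-like motif (TGCGTCA or its reverse, in 2.12% of promoters) and an NF-kB-like motif were found. Neither semaphorin promoter nor that of Artn held any of these motifs, nor the CRE motif TGACGTCA, which 1.79% of promoters hold.

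Depth was even, with 18004136 to 21085544 counts per library, and levels are given as read counts scaled to library size (CPM, with TMM-scaled library sizes), where 3 counts are worth 0.138 to 0.169 CPM. The skin markers were present in all libraries, with summed keratinocyte markers between 12402 and 25511 CPM. One library stood apart. In baseline butyrate replicate 3, the summed markers of the growing hair follicle stood at 17381 CPM against 116 to 206 CPM in the other 7 libraries, and the summed melanocyte markers at 799 CPM against at most 101 CPM. That mouse differed by more than 2-fold from the other baseline butyrate mouse at 3872 of 14319 genes, against 252 to 709 genes within the other groups. Values from fits without it are therefore given beside the comparisons that use baseline butyrate skin.

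Genes were tested with edgeR's quasi-likelihood test over 15163 genes, and a gene was called at a Benjamini-Hochberg adjusted p (FDR) below 0.1 with a fold-change above 2. The p-values measure only the spread between mice, 2 per group, and an exact permutation test of 2 mice against 2 cannot give a two-sided p below 0.333. The 9 genes were chosen with results of these libraries known, so that counts among them are descriptions.

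**Figure D1:**
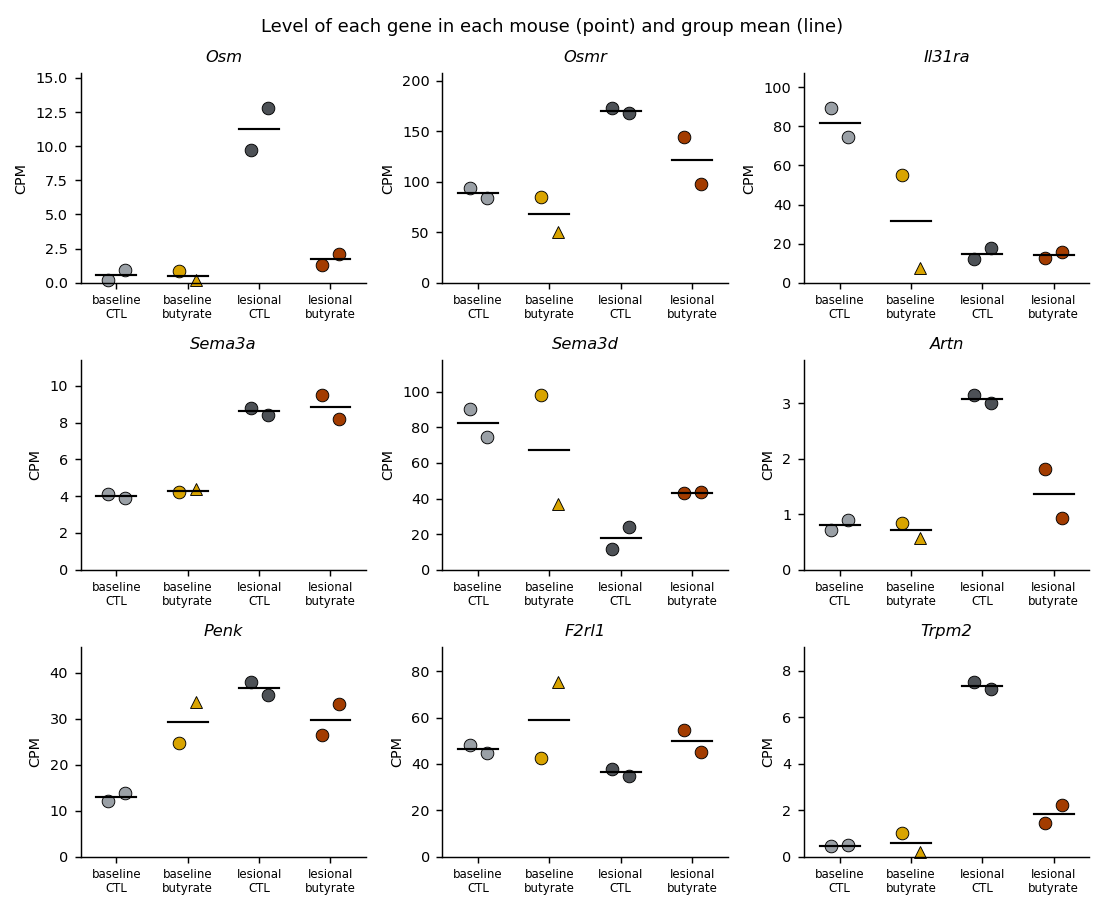
Level of each of the 9 genes in CPM (vertical axis, linear from 0) in each of the 8 mice (points), with the mean of the 2 mice of each group as a line. The triangle is the baseline butyrate mouse with high hair follicle markers. Osm and Trpm2 are high in both lesional CTL mice alone, Sema3a is high in all 4 lesional mice, and Il31ra is at or below 17.6 CPM in all 4 lesional mice and in the triangle mouse.

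HDM-exposed skin of CTL mice was compared with baseline skin of CTL mice to see what the allergen model does to these genes. Osm, Trpm2, Artn, Penk and Sema3a rose in lesional skin, and these 5 genes stand beside 360 genes called higher among all tested, or 2.37%. None of the 9 was called lower, where 1.21% of all genes were. In both lesional mice Artn, Osm, Osmr, Penk, Sema3a and Trpm2 stood above both baseline mice, as did 36.7% of all genes, and F2rl1, Il31ra and Sema3d stood below both, as did 38.5%.

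Osm measured 0.222 and 0.944 CPM in baseline CTL mice and 9.71 and 12.8 CPM in lesional CTL mice. Both lesional mice were far above both baseline mice, whose values rest on 4 and 17 reads. The rise was 4.26 ± 0.81 (SE) on the log2 scale, or 19.1-fold, with an FDR of 0.0645. Its receptor chain Osmr measured 93.7 and 83.5 CPM at baseline and 173 and 168 CPM in lesional skin, a difference of 0.94 ± 0.29 (log2, SE) that was not called, with an FDR of 0.164. The other partner, Il31ra, went the opposite way without passing the test. It measured 89.2 and 74.3 CPM at baseline against 12.1 and 17.6 CPM in lesional skin, a log2 difference of -2.46 ± 0.82 (SE) with an FDR of 0.187. The lower chain level in lesional skin was 5.51-fold in this fit, and its 95% interval on the log2 scale ran from -4.45 to -0.48.

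Sema3a measured 4.11 and 3.89 CPM in baseline CTL mice and 8.81 and 8.40 CPM in lesional CTL mice. The mice of each group were close together, and the rise was 1.10 ± 0.21 (log2, SE; 2.15-fold) with an FDR of 0.0610. Sema3d, a relative that also guides growing axons, lay the other way, with 90.2 and 74.4 CPM at baseline and 11.8 and 24.0 CPM in lesional skin. Its log2 difference was -2.20 ± 0.53 (SE), and its FDR of 0.104 lay just outside the threshold. Artn measured 0.722 and 0.888 CPM at baseline and 3.15 and 3.00 CPM in lesional skin, with no overlap. It rose by 1.92 ± 0.43 (log2, SE; 3.8-fold, FDR = 0.0892).

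Penk measured 12 and 13.8 CPM in baseline CTL mice and 38.1 and 35.3 CPM in lesional CTL mice. The rise of 1.51 ± 0.21 (log2, SE; 2.84-fold) had the smallest FDR of the 9 genes, 0.0373. For F2rl1, the 48.4 and 44.7 CPM at baseline and the 37.8 and 34.9 CPM in lesional skin differed by -0.36 ± 0.27 (log2, SE), with an FDR of 0.484 and a 95% interval from -1.02 to 0.31. Trpm2 was low at baseline, with 0.445 and 0.50 CPM from 8 and 9 reads, and measured 7.53 and 7.2 CPM in lesional skin. It rose by 3.95 ± 0.69 (log2, SE; 15.4-fold, FDR = 0.0539), and the SD between the lesional mice was 0.231 CPM (n = 2).

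These calls depended on which mice entered the fit. Leaving out either baseline CTL mouse, either lesional CTL mouse or either lesional butyrate mouse ended the call of each of the 5 genes, with the FDR of Penk between 0.102 and 0.384 and that of Osm between 0.159 and 0.458. When both baseline butyrate mice were left out, Il31ra (FDR = 0.0024) and Sema3d (FDR = 0.0073) were called lower as well. That fit called 915 genes lower in all, and Osmr stayed below a fold-change of 2. DESeq2 on all 8 mice also called Il31ra (FDR = 0.0155) and Sema3d (FDR = 8.98e-04), among 427 genes that it called lower.

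The same comparison among butyrate-treated mice asked whether these genes also differ between lesional and baseline skin when butyrate is drunk. With edgeR on all 8 mice none of the 9 was called, beside 0.350% of all genes. Both lesional mice lay above both baseline mice for Artn, Osm, Osmr, Sema3a and Trpm2, as for 15.7% of all genes. None had both lesional mice below both baseline mice, as 16.9% of all genes had. The log2 difference was 1.77 ± 0.80 (SE) for Osm, 1.63 ± 0.67 for Trpm2, 0.95 ± 0.44 for Artn and 0.84 ± 0.29 for Osmr, with FDR values from 0.314 to 0.419. Sema3a was close to its value in CTL mice, with a log2 difference of 1.04 ± 0.21 (SE; FDR = 0.174). It was called by DESeq2 (FDR = 0.0022), among 386 genes that DESeq2 called higher. Without baseline butyrate replicate 3 the log2 difference of Sema3a was 1.06. Penk showed 0.03 ± 0.21 (log2, SE) on all 8 mice, with a 95% interval from -0.48 to 0.53. The fit without baseline butyrate replicate 3 was read for the other genes as well. In that fit the log2 difference of Il31ra moved from -1.16 to -1.97 and that of Sema3d from -0.64 to -1.18. Il31ra and Sema3a were called in it, as were other genes, but it held only 1 baseline butyrate mouse. Osm moved from 1.77 to 1.04 and Trpm2 from 1.63 to 0.85. In the same fit Artn moved to 0.69, Osmr to 0.52, Penk to 0.27 and F2rl1 from -0.24 to 0.24. Without replicate 1, which left the mouse with high hair follicle markers as the only baseline butyrate mouse, 2990 genes were called, among them Osm (3.15), Trpm2 (3.23), Osmr (1.27) and Sema3a (1.02).

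**Figure D2:**
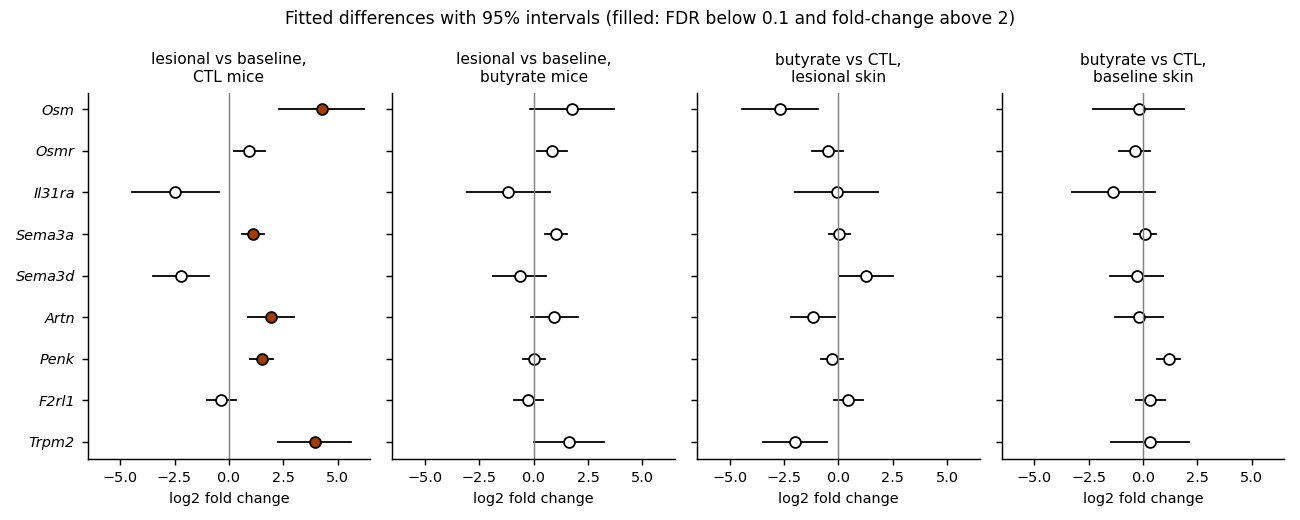
Fitted log2 fold change (horizontal axis) of the 9 genes in 4 comparisons, with 95% intervals as lines; filled points passed an FDR below 0.1 and a fold-change above 2. Filled points appear in the CTL panel of lesional against baseline skin alone (Osm, Sema3a, Artn, Penk and Trpm2), and the interval of Osm reaches from 2.3 to 6.21 there.

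Lesional skin of butyrate-treated mice was compared with lesional skin of CTL mice to see which of these genes differ with butyrate under allergen. With edgeR no gene of the 15163 was called (0%), 734 had an unadjusted p under 0.05 in that test, and DESeq2 called 124. Both butyrate mice stood below both CTL mice for Artn, Osm, Osmr, Penk and Trpm2, as for 22.5% of all genes, and above both for F2rl1 and Sema3d, as for 22.4%. Il31ra and Sema3a overlapped.

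Osm had the largest difference, with 1.34 and 2.14 CPM in lesional butyrate mice against the 9.71 and 12.8 CPM in lesional CTL mice. The fitted difference was -2.69 ± 0.72 (log2, SE; FDR = 0.784), a level 6.45-fold lower, with a 95% interval from -4.44 to -0.94. DESeq2 called it (FDR = 0.0371), and edgeR called it when both baseline butyrate mice were left out (FDR = 0.0784). In that edgeR fit 137 genes were called lower in all. Trpm2 measured 1.43 and 2.23 CPM against 7.53 and 7.2 CPM, a difference of -2.0 ± 0.61 (log2, SE; FDR = 0.861). It too was called by edgeR without both baseline butyrate mice (FDR = 0.0521). The difference there was again -2.0, so that the spread and not the fold moved. In Artn the difference was -1.16 ± 0.41 (log2, SE; FDR = 0.942), from 1.81 and 0.930 CPM in butyrate mice, whose pair of values lay far apart.

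Sema3d went the other way, with 42.9 and 43.8 CPM in lesional butyrate mice against 11.8 and 24.0 CPM in lesional CTL mice. Its difference of 1.27 ± 0.51 (log2, SE) had an FDR of 1.00 and a 95% interval from 0.03 to 2.51, and its level stayed under the 74.4 CPM of the lower baseline CTL mouse. Sema3a, at 9.5 and 8.19 CPM, differed by 0.04 ± 0.20 (log2, SE), with a 95% interval from -0.45 to 0.53, so that a change of 2-fold lay outside the interval. Il31ra, at 12.6 and 15.6 CPM, differed by -0.08 ± 0.79 (log2, SE), with a far wider interval, from -1.98 to 1.83. The remaining genes had fitted differences under 2-fold. Osmr measured 144 and 97.8 CPM (-0.49 ± 0.29), Penk 26.4 and 33.2 CPM (-0.30 ± 0.21) and F2rl1 54.8 and 45.3 CPM (0.46 ± 0.27), all on the log2 scale with SE and an FDR of 1.00.

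Butyrate was also compared with CTL in baseline skin, which had seen no allergen. With edgeR no gene was called (0%), 529 had an unadjusted p under 0.05 in that test, and DESeq2 called 58. Penk and Sema3a had both butyrate mice above both CTL mice, as 13.8% of all genes had, and Il31ra had both below, as 15.9% had. Penk measured 24.7 and 33.8 CPM in baseline butyrate mice against 12 and 13.8 CPM in baseline CTL mice. Its difference of 1.18 ± 0.21 (log2, SE; 2.26-fold, 95% interval 0.66 to 1.69) had the smallest p of all 15163 genes, and an FDR of 0.714. DESeq2 called it (FDR = 0.00977), and without replicate 3 the difference was 0.93 and not called. Without replicate 1, where 3777 genes were called by edgeR, it was 1.38 (FDR = 0.00286) and called, as were Il31ra at -3.41 and Sema3d at -1.17. The butyrate mice without allergen held Penk levels that overlapped those of lesional butyrate mice and lay below those of lesional CTL mice.

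For the other genes the 2 baseline butyrate mice often disagreed. Il31ra measured 55.3 CPM in replicate 1 and 7.72 CPM in replicate 3, and Sema3d 98.2 and 36.7 CPM, while F2rl1 measured 42.5 and 75.5 CPM. Without replicate 3 the difference from CTL moved from -1.38 to -0.56 for Il31ra and changed sign for Sema3d (-0.29 to 0.25) and F2rl1 (0.34 to -0.13), all on the log2 scale. Osmr, at 84.7 and 50.5 CPM, and the low genes Osm (0.846 and 0.191 CPM), Trpm2 (1.01 and 0.191 CPM) and Artn (0.846 and 0.572 CPM) were also lower in replicate 3. Without replicate 3 the difference from CTL moved from -0.20 to 0.53 for Osm, from -0.19 to 0.070 for Artn, from 0.32 to 1.09 for Trpm2 and from -0.39 to -0.065 for Osmr, with no call among the 9 genes. Sema3a was the exception, with 4.23 and 4.38 CPM. The part of the hair follicle markers in these values was not tested.

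Whether butyrate acted differently in lesional and baseline skin was tested as an interaction. With edgeR no gene was called (0%), 703 had an unadjusted p under 0.05 in that test, and DESeq2 called 37. Penk ranked 10 by p, with a difference of effects of -1.48 ± 0.30 (log2, SE; 95% interval -2.20 to -0.76; FDR = 0.840). For Osm it was -2.49 ± 1.1, for Trpm2 -2.32 ± 0.95 and for Sema3d 1.56 ± 0.71 (log2, SE), each with an FDR of 0.840. DESeq2 called Penk (FDR = 0.0318). Without baseline butyrate replicate 3, edgeR called 0 genes (1353 at an unadjusted p under 0.05 in that test), and the difference of effects was -1.23 for Penk (FDR = 0.386), -3.22 for Osm, -3.09 for Trpm2 and 1.01 for Sema3d. Without replicate 1, which left the mouse with high hair follicle markers as the only baseline butyrate mouse, edgeR called 3275 genes, among them Penk (-1.68), Il31ra (3.33) and Sema3d (2.44).

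Markers of other cell types moved with some of these genes. Summed neutrophil markers were 98.0 and 101 CPM in baseline CTL mice, 98.3 and 46.6 CPM in baseline butyrate mice, 2990 and 1956 CPM in lesional CTL mice and 867 and 428 CPM in lesional butyrate mice. In the CTL comparison 11 of 12 tested markers rose, beside 2.37% of all genes, with a median log2 difference of 4.76. In lesional skin all 12 were lower in butyrate mice, none called, with a median of -2.28. These shifts went the way of the group means of Osm, Trpm2 and Artn. Within each lesional pair the mouse with the higher neutrophil sum had the lower Osm and the higher Artn, and for Trpm2 it had the higher value in CTL mice and the lower in butyrate mice. The list holds 14 genes, of which Ly6g (0 to 5 reads) and Camp (0 to 9 reads) had too few reads to be tested, while Cxcr2 had 1065 and 1397 reads in lesional CTL mice and 40 and 47 in baseline CTL mice. In whole skin, more cells of a type and more RNA per cell cannot be told apart, and the part of neutrophils in these results was not tested.

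Schwann cell and nerve markers went the way of Sema3d. Their sum was 545 and 596 CPM in baseline CTL mice, 304 and 371 CPM in lesional CTL mice and 352 and 562 CPM in lesional butyrate mice. In the CTL comparison 8 of 9 tested markers were lower. Injury-induced keratinocyte markers summed to 1042 and 1188 CPM in baseline CTL mice and 1064 and 3360 CPM in baseline butyrate mice. The 3360 CPM came from replicate 3, the mouse with high hair follicle markers, which had no allergen. These sums ran from 6002 to 9020 CPM in lesional CTL mice and from 3761 to 5227 CPM in lesional butyrate mice. Macrophage, monocyte and dendritic cell markers summed to 756 and 944 CPM in baseline CTL mice, 1331 and 352 CPM in baseline butyrate mice, 1460 and 1700 CPM in lesional CTL mice and 789 and 1398 CPM in lesional butyrate mice. Of 13 tested, 11 were higher in lesional than in baseline CTL skin with Cd14 called, and 12 were lower in lesional butyrate than in lesional CTL skin with none called, the way of Osm and Trpm2. T cell markers summed to 25 and 24.6 CPM in baseline CTL mice, 129 and 68.6 CPM in lesional CTL mice and 78.7 and 58.1 CPM in lesional butyrate mice. In lesional CTL skin 4 of 9 tested (Icos, Lck, Cd4 and Foxp3) rose, beside 2.37% of all genes. Keratinocyte markers summed to 25511 and 23946 CPM in baseline CTL mice and 22468 and 12402 CPM in baseline butyrate mice. The sums were 17762 and 16852 CPM in lesional CTL mice and 25009 and 22800 CPM in lesional butyrate mice, without overlap. F2rl1 and Sema3d went the same way between these lesional groups. In the baseline butyrate mouse with 12402 CPM, F2rl1 had its highest level, 75.5 CPM, while Sema3d was low beside the other mouse of that group. Of 10 tested, 7 were higher in lesional butyrate than in lesional CTL skin, none called. Both butyrate mice lay above both CTL mice for 5 of them and below for 2, beside 22.4% and 22.5% of all genes. The part of these markers in the values of the 9 genes was not tested either.

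**Figure D3:**
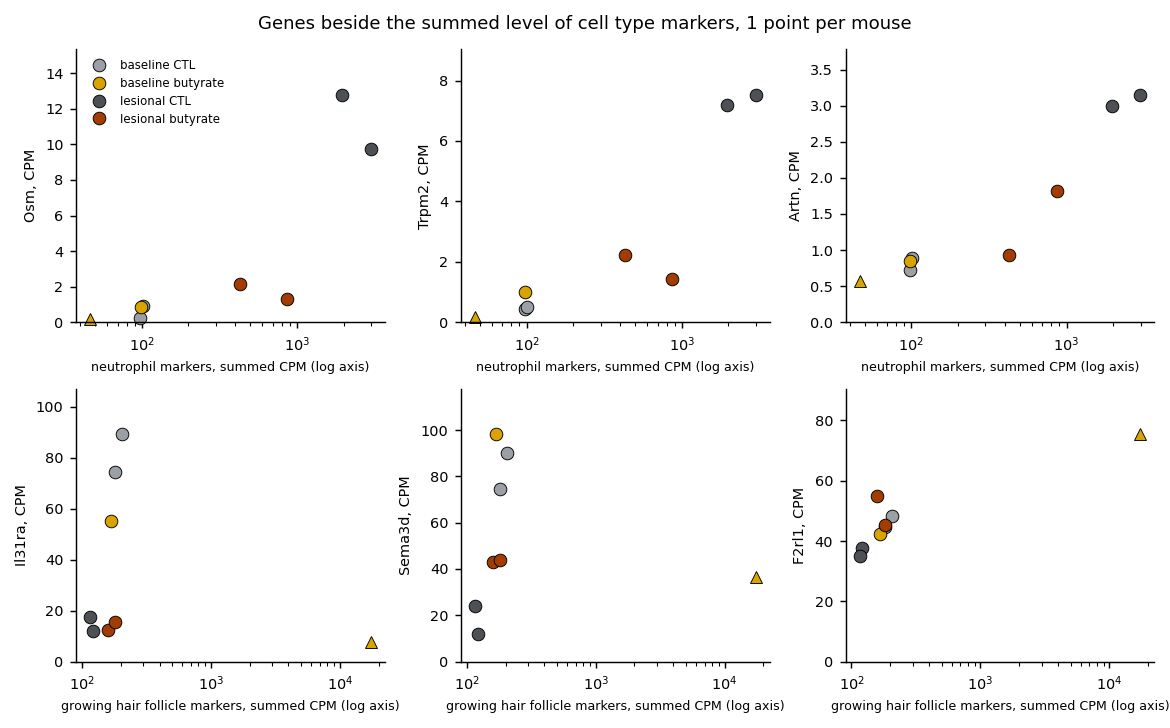
Top, Osm, Trpm2 and Artn in CPM (vertical axes, linear from 0) against summed neutrophil markers in CPM (horizontal axis, log scale), and bottom, Il31ra, Sema3d and F2rl1 against summed growing hair follicle markers, with 1 point per mouse. The triangle is baseline butyrate replicate 3, alone at 17381 CPM of hair follicle markers; both lesional CTL mice lie at the top right of the upper panels.

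The order of levels across the 9 genes was read per kilobase of exon. In baseline CTL skin F2rl1 was highest at 17.0 ± 0.960 CPM per kb (SD, n = 2), followed by Il31ra at 14.4 ± 1.86 and Sema3d at 9.58 ± 1.3. Penk at 7.90 ± 0.786 and Osmr at 7.31 ± 0.597 came next and did not differ beyond their spread. Artn at 0.335, Sema3a at 0.288, Osm at 0.257 and Trpm2 at 0.0379 CPM per kb were lowest, and Artn and Sema3a lay within the spread of Osm. In lesional CTL skin Penk led at 22.4 ± 1.19 CPM per kb, ahead of Osmr at 14.1 ± 0.290 and F2rl1 at 13.3 ± 0.737, whose values lay within about 1 SD of each other. Osm moved up to 4.95 ± 0.955, above Il31ra at 2.61 ± 0.688 and Sema3d at 2.09 ± 0.999, which overlapped. Artn at 1.28, Sema3a at 0.620 and Trpm2 at 0.591 CPM per kb closed the order. In lesional butyrate skin F2rl1 and Penk shared the top at 18.3 ± 2.44 and 18.2 ± 2.95, and Osm stood at 0.765 ± 0.250 CPM per kb.

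Partners of the receptor genes were read from lists around each pathway. Of all tested genes, 2.37% were called higher and 1.21% lower in lesional than in baseline CTL skin. In the list of the IL-31 and oncostatin M axis, 11 genes other than the described ones were tested, and in lesional against baseline CTL skin 1 of them rose and none fell, with a median log2 difference of 0.35 beside -0.02 over all genes. That gene was Lif, a cytokine of the same family as Osm, which measured 2.33 and 3.33 CPM at baseline and 11.2 and 7.61 CPM in lesional skin (1.73 ± 0.33, log2, SE; FDR = 0.0645). Il6st, the shared signalling chain gp130, measured 283 and 290 CPM against 350 and 425 CPM (FDR = 0.392), and Lifr, the receptor chain for Lif, 164 and 167 CPM against 98.1 and 108 CPM (FDR = 0.477). The ligand Il31 itself had 0 reads in 6 libraries and 1 read in each lesional butyrate library, so that its level was not measurable at this depth.

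Among the receptors of growth factors that act on nerves, Gfra1, a co-receptor of the artemin family, rose in lesional CTL skin by 1.10 ± 0.18 (log2, SE; FDR = 0.0469). Its relative Gfra3, the co-receptor for artemin, measured 1.67 and 1.78 CPM at baseline and 1.92 and 1.34 CPM in lesional CTL skin (FDR = 0.943), and Ret, the shared signalling chain, 9.61 and 13.4 CPM against 14.6 and 15.3 CPM (FDR = 0.814). Areg, an epidermal growth factor family member, measured 4.72 and 3.27 CPM against 31 and 21 CPM, and 11.3 and 5.86 CPM in lesional butyrate mice, without a call (FDR = 0.127 in CTL mice).

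Of 12 other class 3 semaphorins and receptors tested, 2 fell and none rose in lesional CTL skin, with a median of -0.30. Sema3e measured 52.1 and 45.3 CPM at baseline and 16.5 and 22.1 CPM in lesional CTL skin (-1.34 ± 0.20, log2, SE; FDR = 0.0385), and thus fell where Sema3a rose. Plxna3, a plexin receptor chain for semaphorins, fell by 1.27 on the log2 scale (FDR = 0.0294), from 58.4 and 53.2 CPM to 23.1 CPM in both lesional mice. Nrp1, the neuropilin that binds Sema3a, measured 59.5 and 66.5 CPM against 66.4 and 79.7 CPM (FDR = 0.759), and Plxna1 127 and 118 CPM against 158 and 166 CPM (FDR = 0.583). None of 15 other axon guidance genes was called, with a median of -0.22.

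In the opioid list only 3 genes besides Penk had enough reads to be tested, and none was called. The receptor genes were near or at 0. Oprm1 had 0 reads in all 8 libraries, Oprk1 at most 2, and Oprd1 at most 6 apart from 53 reads in baseline butyrate replicate 3. Cpe, which trims opioid precursors, measured 146 and 144 CPM in baseline CTL mice and 173 and 150 CPM in lesional CTL mice (FDR = 0.669).

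Of 14 protease-activated receptors, proteases and inhibitors other than F2rl1, 4 rose and none fell in lesional CTL skin, with a median log2 difference of 1.18. Among all tested genes 2.37% were called higher. F2rl2, a sister receptor of F2rl1, rose by 1.84 ± 0.42 (log2, SE; FDR = 0.0919), the mast cell tryptase Tpsb2 by 1.47 ± 0.27 (FDR = 0.0608), the mast cell chymase Cma1 by 1.48 ± 0.31 (FDR = 0.0771), and the epidermal protease Klk14 by 4.12 ± 0.80 (FDR = 0.0676). Mast cell and basophil markers, a list that also holds Tpsb2 and Cma1, summed to 169 and 220 CPM in baseline CTL mice and to 460 and 543 CPM in lesional CTL mice, and their part in this was not tested. Of 5 other TRP channels tested, Trpc4 alone was called, and it fell by 1.90 on the log2 scale (FDR = 0.0846), from 2.39 and 1.83 CPM to 0.374 and 0.738 CPM. Trpv1, the capsaicin receptor of sensory nerves, had 10 to 36 reads in all libraries. With edgeR on all 8 mice, no gene of these 8 itch and nerve lists was called between butyrate and CTL in either skin. The share over all tested genes was also 0% in both, so this says nothing particular about the lists. Of the described genes on them, DESeq2 called Osm in lesional skin (FDR = 0.0371) and Penk in baseline skin (FDR = 0.00977). In butyrate mice edgeR called the natriuretic peptide gene Nppb between lesional and baseline skin, beside 0.350% of all genes. The calls of list genes in CTL mice are part of 543 calls in all, and fits that left out 1 mouse called 0 to 1936 genes, with 0 called by edgeR without either baseline CTL mouse (1314 and 1560 genes at an unadjusted p under 0.05 in that test).

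**Figure D4:**
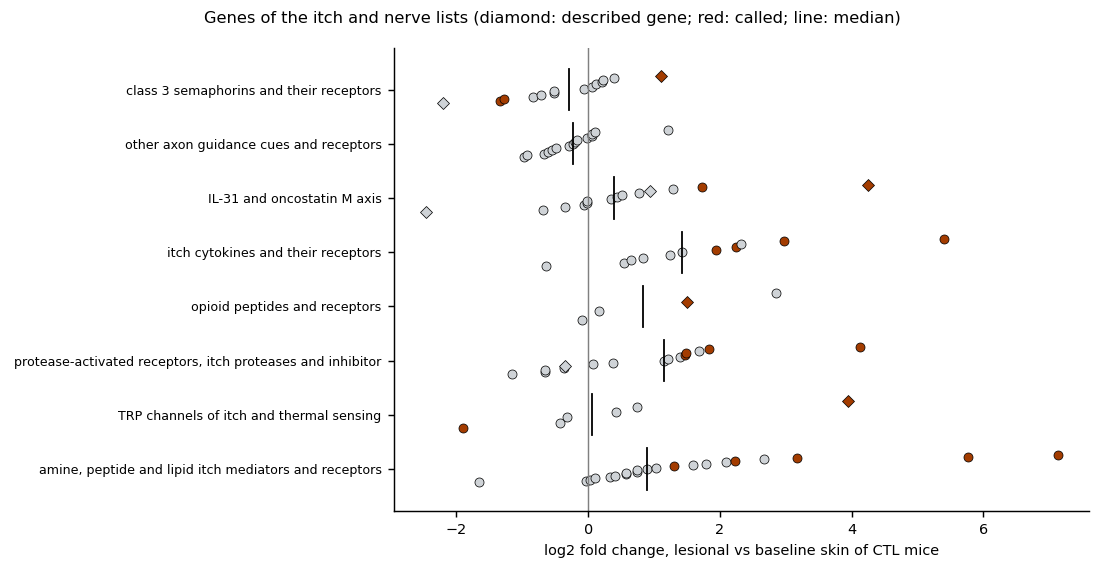
Log2 fold change between lesional and baseline skin of CTL mice (horizontal axis) for each tested gene of 8 itch and nerve lists, with the list median as a line. Artn is on none of these lists and is not drawn. Diamonds are the described genes and red symbols passed an FDR below 0.1 and a fold-change above 2; the diamond at 4.26 is Osm, that at 3.95 Trpm2 and that at -2.46 Il31ra.

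The genes whose levels followed each gene most closely were read from Pearson's r of log2(CPM + 0.5) across the 8 libraries, over 14197 genes with a mean of at least 1 CPM. The points share 4 groups and the library that stood apart, so r is a description. Sema3a went with Gsdmc2 (r = 0.993) and Glrx, and Sema3d with Ttc9 (r = 0.994), Mrgprb3 and Lce1m. Osm went with Srgn (r = 0.989), Tarm1 and Clec4e, and Trpm2 with Tnfsf14 (r = 0.992), Clec4e and Ch25h, where Clec4e is one of the listed neutrophil markers. Artn went with Clcf1 (r = 0.989), a cytokine of the Lif family, Atpaf2 and Il24. Il31ra followed Amacr (r = 0.996), Slc22a4 and Dst, and Osmr followed Tespa1 (r = 0.992), Pgs1 and Sbno2. Penk had Hs3st1 (r = 0.980), Tradd and Mrpl47, and F2rl1 had Cldn1 (r = 0.981), a tight junction gene, Zfp329 and March9.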

How the data were processed

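Groups were taken from the sample labels, with vehicle read as CTL, SCFA (short-chain fatty acid) as butyrate and atopic dermatitis as lesional. The labels do not name the fatty acid, and the study names butyrate for its sequenced lesional skin. Dose, exposures and diet came from the study's methods. The authors aligned reads to GRCm38 (STAR 2.5.2 in the submitters' processing notes), used featureCounts for counts per gene, and deposited raw counts of protein-coding genes. No columns were left unmapped. Totals were 18004136 to 21085544 counts, and counting error limits genes near 3 counts. The analysis used edgeR 4.0.16 in R 4.3.3 (TMM, filterByExpr with a minimum count of 10, glmQLFit with robust estimation, glmQLFTest) on all 8 mice, with Benjamini-Hochberg adjustment over 15163 genes. CPM used TMM-scaled library sizes, and fitted changes a prior count of 0.125. The members and lists were chosen with earlier results of these data known. Named genes were the 9 genes, their partners, at most 4 called genes per list by smallest p, and the 3 genes most like each, apart from items not reported here. DESeq2 1.42.0, limma-voom (limma 3.58.1), changed scaling, low-count filters and FDR thresholds, fits of fewer mice, and limma-voom on only the mice compared, which was added after seeing the data, served as alternatives. Marker lists for sorting out other cell types were T cells, mast cells and basophils, macrophages, neutrophils, Schwann cells, keratinocytes, hair follicle, melanocytes, adipocytes, fibroblasts, endothelium, muscle and sebaceous gland. Gene positions came from GENCODE vM21 and promoters from RefSeq, both on GRCm38. The series' own description gives 16 samples, of which 8 were analysed here.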

Additional observations from a re-analysis of the deposited data

How the results depend on the processing

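The number of genes called depended on the test and on the mice fitted. For butyrate against CTL in lesional skin, where edgeR called 0, limma-voom called 1, DESeq2 124, a fit of only the 4 mice compared 25, limma-voom on those 4 mice 14, a fit without both baseline butyrate mice 188, and fits leaving out 1 mouse 0 to 191. In baseline skin DESeq2 called 58, and leaving out 1 mouse gave 0 to 3777, the highest without baseline butyrate replicate 1. For lesional against baseline skin in CTL mice, 543 genes were called, against 1093 with DESeq2, 245 at an FDR below 0.05, 1918 with only the 4 mice, 1913 with limma-voom on those 4, 1860 without both baseline butyrate mice and 0 to 1936 leaving out 1 mouse. In butyrate mice, 53 were called, against 698 with DESeq2, 83 with library totals only, 17 at an FDR below 0.05, 0 with only the 4 mice (681 at an unadjusted p under 0.05 in edgeR), 0 with limma-voom on those 4 (701) and 0 to 2990 leaving out 1 mouse, the highest again without baseline butyrate replicate 1. For the difference of effects, DESeq2 called 37 and leaving out 1 mouse gave 0 to 3275. Where 1 mouse is left out, the lone mouse of its group is assumed to vary like the others. No other normalization changed the direction of any of the 9 genes. Leaving out 1 mouse turned the direction of some log2 differences that were not called. In lesional skin Sema3a ranged from -0.071 to 0.14 and Il31ra from -0.32 to 0.22 with butyrate. In baseline skin Sema3d ranged from -1.17 to 0.25, Artn from -0.49 to 0.070, Osm from -1.59 to 1.17, F2rl1 from -0.13 to 0.69 and Trpm2 from -1.29 to 1.09, with -0.12 for Trpm2 by limma-voom. Between lesional and baseline skin of butyrate mice, Sema3d ranged from -1.18 to 0.24, Il31ra from -1.97 to 0.87, Penk from -0.17 to 0.27 and F2rl1 from -0.59 to 0.24. For the difference of effects, Sema3a ranged from -0.18 to 0.042, Osmr from -0.43 to 0.32 and F2rl1 from -0.23 to 0.59. Artn lost its call in CTL mice with no filter on low counts (FDR = 0.111). The cause was not tested. Trpm2 had too few reads for a value in baseline skin with only the 4 mice. No paired analysis was possible because no pair of compared groups shares 2 replicate numbers. Depth limits Osm, Trpm2 and Artn, whose baseline values rest on 4 to 18 reads.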

Other observations

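Other itch signals also differed between lesional and baseline skin of CTL mice. Of 11 itch cytokines and their receptors tested, 4 rose and none fell, with a median log2 difference of 1.42. Among all tested genes 2.37% were called higher. Il1rl1, the IL-33 receptor, rose by 2.98 ± 0.38 (log2, SE; FDR = 0.0322), Il4ra, a receptor chain for IL-4 and IL-13, by 1.94 ± 0.32 (FDR = 0.0458), and Il33 by 2.24 ± 0.50 (FDR = 0.0905). Il13 had 2 and 0 reads at baseline and 68 and 35 reads in lesional CTL mice (FDR = 0.0672). In lesional skin Il4ra measured 104 and 91.1 CPM in butyrate mice and 273 and 262 CPM in CTL mice, a difference of -1.45 ± 0.31 (log2, SE) that was not called (FDR = 0.737).

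Of 21 amine, peptide and lipid itch mediators and receptors tested, 5 rose and none fell in lesional CTL skin, beside 2.37% of all genes called higher. Their median log2 difference was 0.90. Nppb, which encodes a natriuretic peptide used in itch signalling, had 1 and 3 reads in baseline CTL mice, 6 and 15 in baseline butyrate mice, 328 and 333 in lesional CTL mice and 127 and 96 in lesional butyrate mice. It was called in CTL mice (FDR = 0.00908) and in butyrate mice (FDR = 0.0879). Calca, which encodes the calcitonin gene-related peptide, had 3 and 0 reads in baseline CTL mice, 97 and 98 in lesional CTL mice and 39 and 18 in lesional butyrate mice (FDR = 0.0454 in CTL mice). Hdc, the enzyme that makes histamine and one of the listed neutrophil markers, rose by 3.17 ± 0.50 (log2, SE; FDR = 0.0428), and Htr7, a serotonin receptor, by 2.23 ± 0.33 (FDR = 0.0377). The part of infiltrating cells in these values was not tested.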
